A study of Mus musculus with 20 samples.

Results

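The CXC chemokine genes Cxcl1, Cxcl2, Cxcl3, Cxcl5 and Cxcl14 and the receptor gene Cxcr2 were followed in colon RNA from 20 mice. They are 6 of the 32991 genes to which the deposited transcripts could be assigned. They were chosen from earlier results on these mice, in which several of them rose with AOM/DSS and were lower when PZH was given, so their values in the comparisons made with those groups are description and carry no test. The study asked how Pien Tze Huang (PZH), a compound traditional Chinese medicine, acts on colitis-associated colon cancer in mice. Male C57BL/6 mice formed 4 groups of 5. Control mice received water by gavage, PZH mice received 250 mg/kg of PZH daily by gavage, AOM/DSS mice received the carcinogen and the irritant together with water, and PZH + AOM/DSS mice received both treatments, over 91 days in each group. Azoxymethane (AOM), a colon carcinogen, was injected once at 12.5 mg/kg, and 2% dextran sulfate sodium (DSS), which injures the colon epithelium, was given in the drinking water for 5 days in each of 4 cycles. One library per mouse was sequenced, and the RNA came from colon tissue with all its cell types, so that fewer cells of a type and less RNA per cell cannot be told apart.

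Chemokines are small secreted proteins that draw leukocytes along a gradient. In the CXC family, 1 residue separates the first cysteine pair, and the members that carry glutamate, leucine and arginine (ELR) just before it bind CXCR2 and attract neutrophils. Cxcl1, Cxcl2, Cxcl3 and Cxcl5 belong to that class, are made by epithelial and stromal cells and by macrophages, and are textbook targets of NF-kB and of the cytokines IL-1, TNF and IL-17. Cxcl14 is a homeostatic CXC chemokine of epithelia without the ELR motif, and CXCR2 is a G protein-coupled receptor found mainly on neutrophils.

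The ELR class can be read from the coding sequences. The stretch around the first cysteine pair is shown for the main transcript of each ligand (GENCODE M21, GRCm38, coding strand, 5′ to 3′, 48 bases), with capitals on the 6 codons that run from 3 codons before the pair to its second cysteine.
Cxcl1: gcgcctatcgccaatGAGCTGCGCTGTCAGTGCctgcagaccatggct
Cxcl2: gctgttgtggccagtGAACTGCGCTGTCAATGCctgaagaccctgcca
Cxcl3: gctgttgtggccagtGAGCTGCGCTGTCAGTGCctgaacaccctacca
Cxcl5: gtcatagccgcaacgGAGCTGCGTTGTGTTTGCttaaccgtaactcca
Cxcl14: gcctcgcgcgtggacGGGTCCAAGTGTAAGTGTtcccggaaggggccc
Cxcl1, Cxcl2, Cxcl3 and Cxcl5 encode ELR before the pair and Cxcl14 does not, so the name "neutrophil-attracting" covers 4 of the 5 ligands and the receptor. The stretches lie in exon 2 of Cxcl1 (chr5:90891472-90891519), Cxcl2 (chr5:90904118-90904165), Cxcl3 (chr5:90786344-90786391) and Cxcl5 (chr5:90759703-90759750), all on the plus strand. That of Cxcl14 spans exons 1 and 2 on the minus strand (chr13:56295900-56296125).

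The 4 ELR ligands are neighbours on chromosome 5 of GRCm38. Cxcl5 (ENSMUSG00000029371.7) lies from 90759360 to 90761624, Cxcl3 (ENSMUSG00000029379.10) from 90786103 to 90789600, Cxcl1 (ENSMUSG00000029380.11) from 90891241 to 90893115 and Cxcl2 (ENSMUSG00000058427.10) from 90903871 to 90905938, within 147 kilobases that also hold Ppbp, Pf4 and Cxcl15. Cxcl14 (ENSMUSG00000021508.11) lies on chromosome 13 from 56288643 to 56296551 and Cxcr2 (ENSMUSG00000026180.8) on chromosome 1 from 74153989 to 74161246. None of the 6 overlaps another annotated gene. The coding sequences of Cxcl2 and Cxcl3 were 89.7% identical, and their transcripts shared a run of 110 bases, so reads could be assigned to either and the split between them is uncertain. Cxcl1 shared at most 23 bases in a row with Cxcl2 or Cxcl3, and Cxcl5 and Cxcl14 at most 12 with any other ligand.

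A stretch upstream of the start site is shown for 3 genes of the cluster, since their levels were high in the same groups. RefSeq promoter sequences (GRCm38.p6) were given for 5 of the 6 genes, and bases 140 to 31 before the start are shown for Cxcl1, Cxcl2 and Cxcl3, on the plus strand. Capitals mark matches to the NF-kB consensus.
Cxcl1 (chr5:90891105-90891214): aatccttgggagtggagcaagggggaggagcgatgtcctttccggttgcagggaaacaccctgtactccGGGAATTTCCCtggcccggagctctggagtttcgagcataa
Cxcl2 (chr5:90903759-90903868): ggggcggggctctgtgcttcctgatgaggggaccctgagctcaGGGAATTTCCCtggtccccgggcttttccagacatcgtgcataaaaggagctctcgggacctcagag
Cxcl3 (chr5:90785961-90786070): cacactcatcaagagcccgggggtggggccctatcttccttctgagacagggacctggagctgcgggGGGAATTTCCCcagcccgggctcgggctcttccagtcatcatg
All 3 held GGGAATTTCCC, which matched the consensus on both strands in overlapping positions, beginning 71 bases before the start in Cxcl1, 97 in Cxcl2 and 73 in Cxcl3. The same search over the 250 bases before the start, on both strands, found the consensus in 3.90% of 32851 promoters. In Cxcl14 and Cxcr2 these letters were not in the 250 bases. The AP-1 motif TGANTCA was found in none of the 5 stretches and in 6.75% of all promoters, and TATAA in Cxcl3 alone of the 5 and in 22.8% of all.

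Values are FPKM, fragments normalised to the length of the transcript and to the number of mapped fragments, summed over the transcripts of a gene, so levels of different genes are per length. The step between low values corresponded to 15.3 to 19.4 M fragments per mouse, which put Cxcr2 at an estimated 143 to 217 fragments in AOM/DSS mice and at 0 to 19.0 in Control mice. An FPKM of 0 can be a failed estimate in these files: Epcam, a marker of every epithelial cell, had a value of 0 in each of the 5 Control mice and of 865 FPKM in PZH + AOM/DSS mouse 35, and fragments given to transcripts assembled from the reads, which carry no gene name, are missing from their gene. For that reason a gene is called listed at 0, not absent. The tissue carried colon epithelium, with 10 markers summing to 1674 to 6381 FPKM over the 20 mice. Control mice 17 and 50 stood apart: they held Krt13, a keratin of squamous epithelium, at 125 and 126 FPKM, against 0.256 to 0.527 in the other 3 Control mice, and what changed without them is given beside the results that rest on Control mice.

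In AOM/DSS mice all 6 genes were higher than in every Control mouse. The ligands Cxcl2 and Cxcl3 and the receptor Cxcr2, at 0.381 FPKM or less in every Control mouse, reached 2.78 FPKM or more in every AOM/DSS mouse. When PZH was given with AOM/DSS, the medians of all 6 genes lay below those of AOM/DSS mice, but mouse 35 of that group held each of them within the AOM/DSS range.

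**Figure D1:**
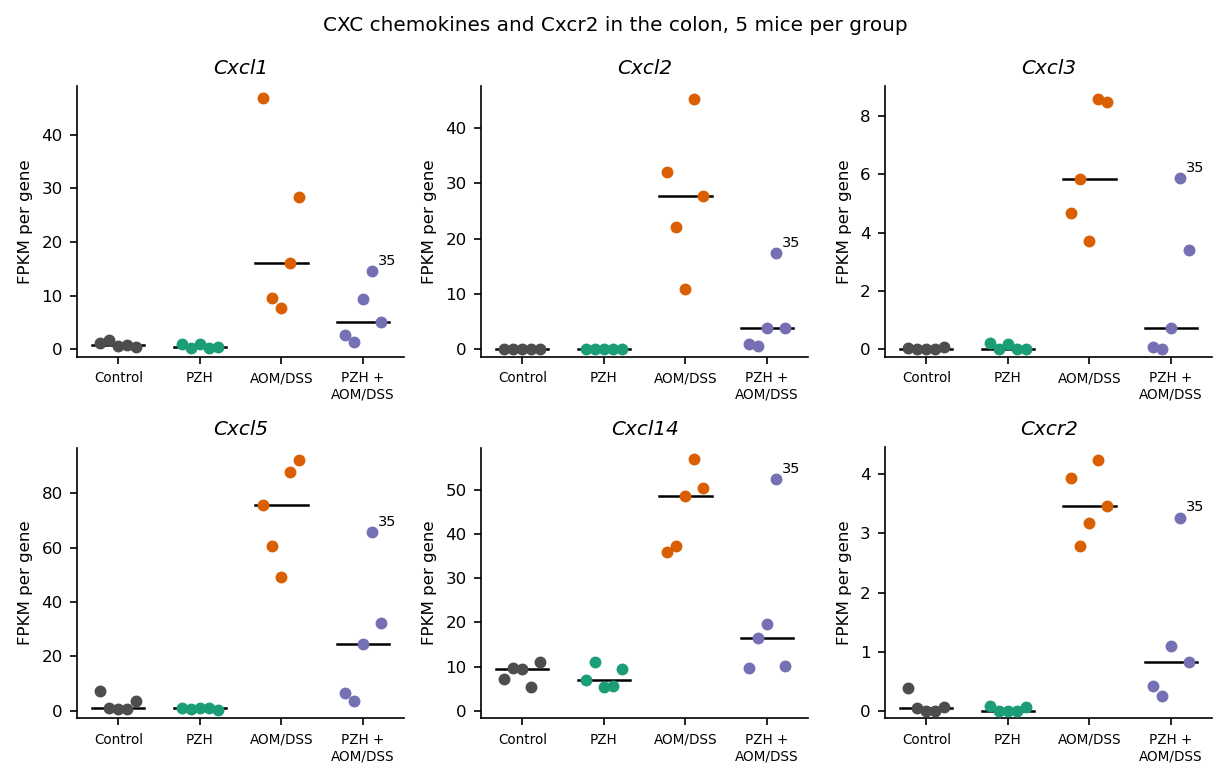
FPKM per gene (linear axes) of the 6 genes in each of 5 mice per group, with a line at the group median and PZH + AOM/DSS mouse 35 marked. AOM/DSS mice lie above every Control mouse in all 6 panels, and mouse 35 is the highest of its group in each.

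Cxcl1, a ligand released early in tissue injury, was at 1.14, 1.65, 0.615, 0.835 and 0.377 FPKM in Control mice 17, 37, 41, 48 and 50. Its level in AOM/DSS mice 23, 30, 33, 44 and 52 was 46.8, 9.48, 7.76, 16.1 and 28.4 FPKM. In PZH + AOM/DSS mice 2, 13, 15, 35 and 36 it was 2.70, 1.43, 9.35, 14.7 and 5.10 FPKM. The Control and AOM/DSS ranges did not overlap. Among AOM/DSS mice, mouse 23 stood highest, and PZH + AOM/DSS mice 15 and 35 lay within that range.

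Cxcl2, the ligand also known as MIP-2, was listed at 0.126, 0.0705, 0, 0.0301 and 0.0986 FPKM in Control mice. AOM/DSS mice held 32, 22.1, 11, 45.4 and 27.8 FPKM, in the same mouse order. PZH + AOM/DSS mice held 0.959, 0.516, 3.88, 17.4 and 3.94 FPKM. Mouse 35 was the only mouse of that group above the lowest AOM/DSS mouse, and the other 4 reached 1.85 to 14.2% of the AOM/DSS median.

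Cxcl3, the paralog nearest to Cxcl2, was listed at 0.0538, 0, 0, 0 and 0.0671 FPKM in the Control group. AOM/DSS mice held 4.68, 5.82, 3.70, 8.60 and 8.49 FPKM. In PZH + AOM/DSS mice 2, 13, 15, 35 and 36 it was listed at 0.0681, 0, 0.716, 5.86 and 3.4 FPKM. The last mouse lay just under the lowest AOM/DSS mouse, and mouse 35 at the AOM/DSS median.

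Cxcl5, a ligand made by epithelial cells, had the highest median FPKM of the 6 in both AOM/DSS groups. It lay below Cxcl14 in PZH + AOM/DSS mice 2 and 13. Control mice held 7.27, 0.960, 0.806, 0.499 and 3.65 FPKM, the highest values being those of the mice with squamous keratins, 17 and 50. AOM/DSS mice held 75.7, 60.4, 49.4, 87.8 and 92.2 FPKM, and PZH + AOM/DSS mice 6.67, 3.56, 24.4, 65.8 and 32.2 FPKM. All of the latter but mouse 35 lay below the AOM/DSS range, and mice 2 and 13 lay within the Control range, which without Control mice 17 and 50 ended at 0.960 FPKM, below all PZH + AOM/DSS mice.

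Cxcl14, the ligand without ELR, was the only one of the 6 above 5 FPKM in every Control mouse, with a mean of 8.54 ± 2.26 FPKM (SD, n = 5). The AOM/DSS group had 45.8 ± 8.98 FPKM (SD, n = 5) and the PZH group 7.69 ± 2.47 FPKM (SD, n = 5). PZH + AOM/DSS mice 2, 13, 15, 35 and 36 held 9.78, 16.5, 19.7, 52.5 and 10.1 FPKM. Mouse 35 lay above the AOM/DSS median and the other 4 below the whole AOM/DSS range, with mice 2 and 36 within the Control range. Both exceeded every Control mouse other than mouse 50, the highest of which held 9.71 FPKM.

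Cxcr2, the receptor, was listed at 0 in mice 41 and 48 of the Control group, at 0.0539 and 0.0578 FPKM in mice 37 and 50 and at 0.381 FPKM in mouse 17. AOM/DSS mice held 3.93, 2.78, 3.19, 4.24 and 3.46 FPKM, the narrowest spread of the 6 relative to the mean. PZH + AOM/DSS mice held 0.413, 0.245, 1.09, 3.27 and 0.823 FPKM. Again mouse 35 alone reached the AOM/DSS range.

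The order of levels differed between the groups. In AOM/DSS mice the medians ran from Cxcl5 at 75.7 FPKM through Cxcl14, Cxcl2, Cxcl1 and Cxcl3 to Cxcr2 at 3.46 FPKM, and the ranges of all neighbours in that order overlapped. In Control mice Cxcl14 stood first at 9.49 FPKM, followed by Cxcl5 and Cxcl1, and no range overlapped between Cxcl1 and Cxcl2, the next in order. The 4 ELR ligands together summed to 1.37 to 8.59 FPKM in Control, 0.863 to 2.23 in PZH, 71.8 to 159 in AOM/DSS and 5.50 to 104 in PZH + AOM/DSS mice. Cxcl5 made up a median of 56.7% of that sum in Control and 58.8% in AOM/DSS mice. The median of the 3 Control mice other than 17 and 50 was 36.6%, and Cxcl1 then made up 61.2%. Cxcl2 made up at most 2.63% in Control mice and 15.3 to 28.7% in AOM/DSS mice, and at most 16.8% in PZH + AOM/DSS mice.

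Compared with the Control group, the fitted log2 difference of FPKM + 1 in AOM/DSS mice was 4.64 (SE 0.44) for Cxcl5, 4.62 (SE 0.30) for Cxcl2, 3.31 (SE 0.43) for Cxcl1, 2.77 (SE 0.20) for Cxcl3, 2.31 (SE 0.19) for Cxcl14 and 2.04 (SE 0.13) for Cxcr2. All 6 had a Benjamini-Hochberg adjusted P under 0.05 and higher values, as did 16.4% of the 15812 genes tested. The study's criteria, a fold change above 2 with an unadjusted P under 0.05, were met by all 6 and by 5.85% of all genes in this direction, and the groups did not overlap for all 6 and for 13% of all genes. The study applied these thresholds to transcripts with DESeq. Here and below they are applied to gene sums with limma and to the fold change of FPKM + 1, so the counts are not the study's own. These counts restate how the genes were chosen. The added 1 compresses the differences of genes near 0 in Control mice: with 0.1 in its place the log2 difference was 7.31 for Cxcl2, 5.64 for Cxcl3, 5.36 for Cxcl5, 4.45 for Cxcr2, 4.23 for Cxcl1 and 2.43 for Cxcl14, in another order. Cxcl2, Cxcl3 and Cxcr2 passed the filter of 0.5 FPKM in 5 mice through AOM/DSS mice alone, so their groups could not overlap. Without Control mice 17 and 50, the difference with the added 1 was 5.37 for Cxcl5 and 2.14 to 4.66 for the other 5, and all 6 met both criteria, against 12% of all genes called higher.

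PZH + AOM/DSS mice were then set against the same AOM/DSS mice that enter the comparison above, and each fitted difference was below 0. It was −2.64 (SE 0.62) for Cxcl2, −1.99 (SE 0.64) for Cxcl5, −1.65 (SE 0.52) for Cxcl3, −1.59 (SE 0.58) for Cxcl1, −1.30 (SE 0.39) for Cxcl14 and −1.20 (SE 0.29) for Cxcr2. None had an adjusted P under 0.05 with limma, and 0% of the 15888 genes had one in this direction. With an unadjusted P under 0.05, all 6 were lower, as were 8.21% of all genes, and the fold change criterion was met too by all 6 and by 2.01% of all. Since the genes were chosen on this difference, nothing is read from these counts.

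**Figure D2:**
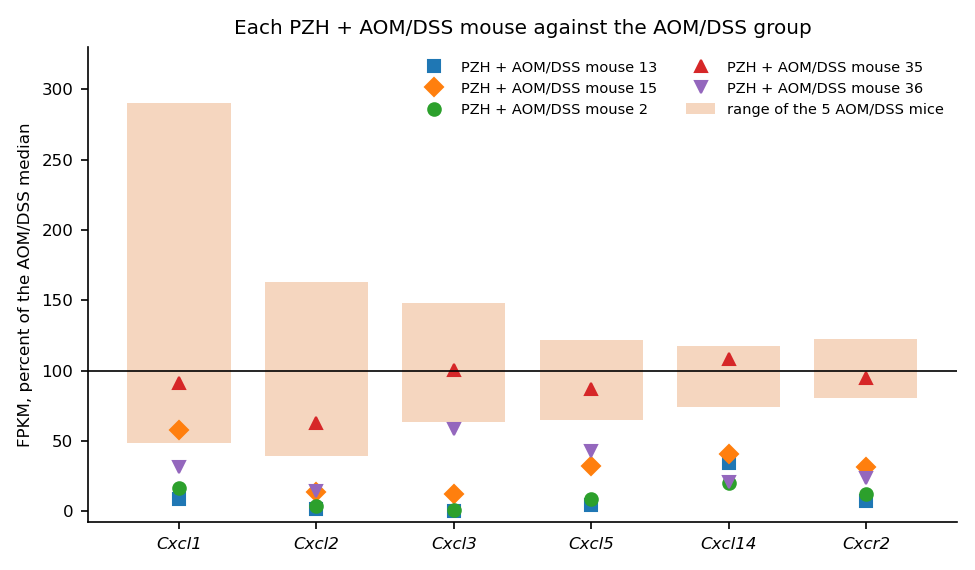
FPKM of each gene in the 5 PZH + AOM/DSS mice as a percent of the AOM/DSS median (linear axis), with bars for the range of the 5 AOM/DSS mice. Mouse 35 lies between 62.4 and 108% in all 6 genes, whereas mice 2 and 13 stay at or below 34.0%.

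These values differed widely between PZH + AOM/DSS mice, and mouse 35, highest in all 6 genes, was left out after its values were seen. As a percent of the AOM/DSS median, the 6 genes had a median of 92.7% in mouse 35, against 5.88% in mouse 13, 10.4% in mouse 2, 27.7% in mouse 36 and 31.9% in mouse 15. Without mouse 35, 5 of the 6 genes (all but Cxcl1) were lower with an adjusted P under 0.05, beside 5.08% of genes in either direction. These 5 lay wholly below the AOM/DSS range, as did 8.2% of all genes. Since the genes were chosen on this difference and mouse 35 was the highest in each, nothing is read from these counts. The difference was then −3.17 for Cxcl2 and −1.68 for Cxcl14. The summed FPKM of 10 markers of squamous epithelium was highest of its group in mouse 35, at 221 FPKM. It was 19.4 to 55.4 FPKM in the other 4 and 74.7 to 224 FPKM in AOM/DSS mice. These sums mostly followed Ly6d, which alone held 149 FPKM in mouse 35 and 60.8 to 186 FPKM in AOM/DSS mice. Of the 10 genes, 4 stayed under 1 FPKM in every AOM/DSS mouse. Smooth muscle genes, 6 in all, were lowest in mouse 35 at 872 FPKM, against 979 to 2300 FPKM in the others of its group.

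Colon epithelium genes were compared in the same contrast. None of 10 was called, and 4, named after their values were seen, had an unadjusted P under 0.05. Car1, a carbonic anhydrase of surface colonocytes, differed by 1.23 (SE 0.43) and Slc26a3, their chloride/bicarbonate exchanger, by 1.25 (SE 0.41), and these 2 met the study's criteria, as did 0.39% of genes in this direction. Lgr5, a marker of crypt stem cells, met them with −1.49 (SE 0.57), and Cdx2, an intestinal transcription factor, differed by 0.96 (SE 0.39). Lgr5 was at 2.19, 0.726, 7.77, 21.6 and 4.50 FPKM in PZH + AOM/DSS mice 2, 13, 15, 35 and 36, against 11.1 to 22.4 FPKM in AOM/DSS mice, and Car1 at 418, 384, 684, 177 and 380.4 FPKM. Mouse 35 was highest of its group in the first and lowest in the second. The part of these tissues in the chemokine values was not tested.

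With PZH alone, no difference from Control mice was detected in these genes with 5 mice a group. Cxcl1 was at 0.149 to 0.928 FPKM in PZH mice and Cxcl5 at 0.452 to 1.07 FPKM, both overlapping the Control range. Cxcl2, Cxcl3 and Cxcr2 reached at most 0.135, 0.201 and 0.0848 FPKM and were too low to be tested. The fitted log2 difference from Control mice was −0.33 (SE 0.21) for Cxcl1, −0.69 (SE 0.42) for Cxcl5 and −0.14 (SE 0.23) for Cxcl14. Without Control mice 17 and 50 it was −0.41 (SE 0.23) for Cxcl1, 0.044 (SE 0.16) for Cxcl5, with the other sign, and −0.080 (SE 0.27) for Cxcl14. None of the 3 tested met an adjusted P under 0.05 (0.00645% of 15506 genes did, in either direction), the fold criterion (0.69% of genes) or an unadjusted P under 0.05 (8.84% of genes) with limma.

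In mice given PZH, those with AOM/DSS were compared with those without, a comparison that shares no mouse with AOM/DSS against Control. Cxcl5, at 26.5 ± 25 FPKM (SD, n = 5) against 0.815 ± 0.263 FPKM (SD, n = 5), was higher by 3.33 on the log2 scale (SE 0.62, limma adjusted p = 0.0308). Cxcl1, at 6.65 ± 5.4 FPKM (SD, n = 5) against 0.528 ± 0.372 FPKM (SD, n = 5), was higher by 2.05 (SE 0.45, limma adjusted p = 0.0447). Cxcl2 differed by 2.00 (SE 0.55, limma adjusted p = 0.0827) and Cxcl14 by 1.15 (SE 0.40, limma adjusted p = 0.140), which did not pass. Cxcl3 and Cxcr2 fell under the filter of 0.5 FPKM in 5 of these 10 mice. Cxcl2 passed that filter through PZH + AOM/DSS mice alone, so its groups could not overlap and it had to differ. Cxcl1 and Cxcl5 were thus called higher, at a background of 1.74% of 15636 genes, and these 2 met the study's criteria with Cxcl2 and Cxcl14, as did 2.42% of genes. The calls depended on the fit: without a filter on low values neither was called (limma adjusted p = 0.0995 for Cxcl1 and 0.0719 for Cxcl5), and with all 20 mice in one model Cxcl2 (limma adjusted p = 0.0173) and Cxcl14 (limma adjusted p = 0.0444) were called too. Cxcl1, Cxcl2 and Cxcl5 did not overlap between the groups, as was so for 5% of genes, and among the genes not tested Cxcr2 did not overlap either, at 0.245 FPKM or more against 0.0848 or less. The PZH + AOM/DSS mice had been seen in the choice of the genes. When 1 mouse was left out, the limma adjusted p of Cxcl1 ran from 0.0224 to 0.108 and stayed under 0.05 only without PZH + AOM/DSS mouse 13. That of Cxcl5 ran from 0.0141 to 0.0773 and passed 0.05 without PZH mouse 14, 27, 46 or 53 or PZH + AOM/DSS mouse 15, and it was 0.0364 without mouse 35.

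**Figure D3:**
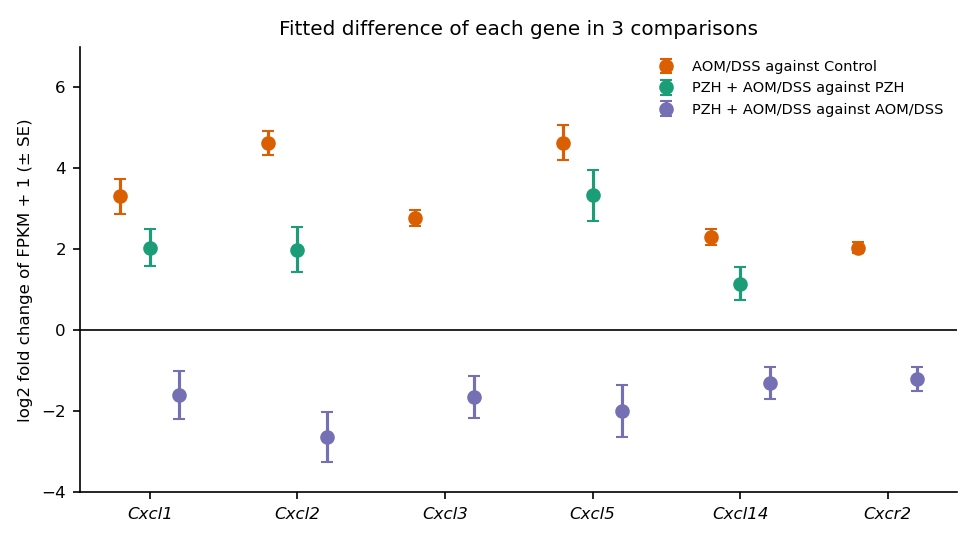
Fitted log2 fold change of FPKM + 1 (points) with its standard error (bars) for each gene tested in 3 comparisons; the comparisons share mice. AOM/DSS against Control and PZH + AOM/DSS against PZH lie above 0, and PZH + AOM/DSS against AOM/DSS below 0 for all 6 genes.

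The difference of the AOM/DSS effect with and without PZH, fitted over all 20 mice, was −2.62 (SE 0.67) for Cxcl2, −1.71 (SE 0.56) for Cxcl3, −1.31 (SE 0.81) for Cxcl5, −1.26 (SE 0.66) for Cxcl1, −1.16 (SE 0.47) for Cxcl14 and −1.12 (SE 0.32) for Cxcr2. It had no adjusted P under 0.05 for any of the 6 with limma, against 0.0118% of 16936 genes in either direction. Without mouse 35, Cxcl2, Cxcl3, Cxcl14 and Cxcr2 had one, at a background of 2.91% of genes in either direction. With all mice, Cxcl2, Cxcl3, Cxcl14 and Cxcr2 met the unadjusted criteria and were lower, as did 1.82% of genes. Without Control mice 17 and 50 it was −2.04 (SE 0.78) for Cxcl5, and 0 of the 6 were called. This term contains the contrasts on which the genes were chosen and is given as a description.

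Transcripts of one kind made up most of each gene where the gene was high. The protein-coding Cxcl5-201 held 97.6 to 99.2% of the FPKM of Cxcl5 in AOM/DSS mice, Cxcl1-201 94.7 to 98.9%, Cxcl3-201 95.1 to 98.6% and Cxcl2-201 76.1 to 89.5%, with retained-intron transcripts making up most of the remainder of Cxcl2. Cxcl14 was the exception. Cxcl14-201 encodes 99 residues, and Cxcl14-202 shares the start and the first cysteine pair but encodes 61. In all 5 Control mice Cxcl14-202 held 57.1 to 69.0% of the FPKM of the gene. It held 64.0% in PZH mouse 53 and 61% in AOM/DSS mouse 52, and at most 6.63% in the other 13 mice. In mouse 52 this came to 30.7 of 50.3 FPKM. The level of Cxcl14-201 alone was 2.27 to 4.09 FPKM in Control and 19.7 to 55.6 FPKM in AOM/DSS mice. The transcripts share a run of 1165 bases, so that the split between them rests on the remaining bases, and it was not tested further.

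**Figure D4:**
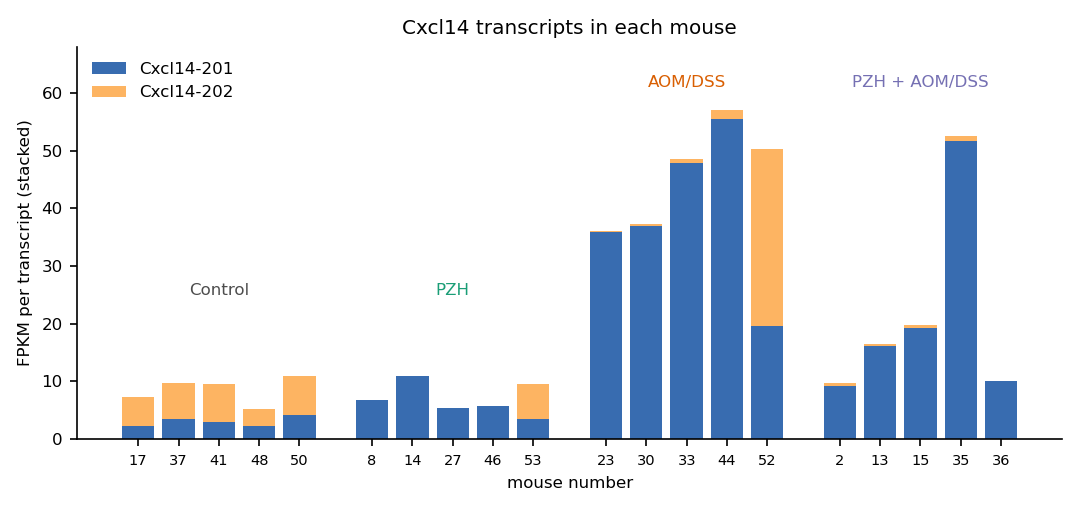
FPKM of Cxcl14-201 and Cxcl14-202 stacked for each of the 20 mice, numbered and ordered by group (linear axis from 0). Cxcl14-202 takes 57.1 to 69.0% of the bar in every Control mouse and most of the bar in PZH mouse 53 and AOM/DSS mouse 52, and little elsewhere.

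Of 10 other CXC chemokine genes, 7 were tested between AOM/DSS and Control mice and 2, Cxcl9 and Cxcl10, were called higher, beside 16.4% of all genes, and none lower. Without Control mice 17 and 50, Cxcl9 and Ppbp were called and Cxcl10 was not (limma adjusted p = 0.0781). Cxcl9 and Cxcl10 encode interferon-induced ligands of CXCR3 on T cells. Cxcl9 rose from 0.765 ± 0.835 FPKM (SD, n = 5) in Control to 7.83 ± 6.35 FPKM (SD, n = 5) with AOM/DSS (log2 difference 2.17, SE 0.43, limma adjusted p = 0.00508) and stood at 11.1 ± 6 FPKM (SD, n = 5) in the PZH + AOM/DSS group. Its highest value in the last group was that of mouse 15 at 20.3 FPKM, whereas mouse 35 held 8.71 FPKM. Cxcl10 rose by 1.52 (SE 0.37, limma adjusted p = 0.0142) and was highest in mouse 15 too, at 44.2 FPKM. The median log2 difference of PZH + AOM/DSS from AOM/DSS was −0.16 over the 7 tested, beside −0.04 over all genes. It was −1.62 over the 6 chosen genes, which were picked on this difference, so these medians are not compared. None of the 7 had an unadjusted P under 0.05. In PZH + AOM/DSS against PZH mice Cxcl9 and Cxcl10 were again called higher, by 2.43 (SE 0.31, limma adjusted p = 0.0100) and 2.35 (SE 0.44, limma adjusted p = 0.0312). Of all genes, 1.74% were called higher there. Ppbp and Pf4, platelet chemokine genes that lie between Cxcl5 and Cxcl3, and Cxcl15 were named after their values were seen. Ppbp was at 15.7 and 20.1 FPKM in Control mice 17 and 50, those with squamous keratins, and at 0.101 to 0.237 FPKM in the other Control mice. It stood in AOM/DSS mice at 3.56, 2.33, 1.41, 2.36 and 6.12 FPKM, and in PZH + AOM/DSS mice at 0.0596, 0.212, 1.52, 7.02 and 1.52 FPKM, mouse 35 again being highest. Its log2 difference of AOM/DSS from Control was 0.14 (SE 0.89), and 1.75 (SE 0.31, limma adjusted p = 0.00680) without mice 17 and 50. Cxcl15, also of this cluster, was at 0 in all Control mice, at 0.0277 to 0.196 FPKM in AOM/DSS mice and, among PZH + AOM/DSS mice, at 0.0807 FPKM in mouse 35 and at 0 in the other 4. Pf4 was at 19.0 to 51.4 FPKM in Control and 14.7 to 27.4 FPKM in AOM/DSS mice.

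Among 7 other CXC and atypical receptor genes, 6 were tested and 2 were called higher with AOM/DSS than in Control mice: Cxcr4, the receptor of Cxcl12, by 1.17 (SE 0.31, limma adjusted p = 0.0199) and Cxcr6, the receptor of Cxcl16, by 0.77 (SE 0.18, limma adjusted p = 0.0106). Neither was called without Control mice 17 and 50. In the comparison of both PZH groups 1 of 5 tested was called higher, Cxcr4, beside 1.74% of all genes. None was called between the groups with AOM/DSS. There 1, Ackr1, named after its values were seen, was lower with an unadjusted P under 0.05, beside 8.21% of all genes. Its log2 difference was −0.98 (SE 0.20). It was at 0.981 to 2.47 FPKM in AOM/DSS mice and at 0.0131 to 0.701 FPKM in PZH + AOM/DSS mice, mouse 35 included. Cxcr1, the second receptor of ELR chemokines, had values of 0 in all mice without AOM/DSS and of 0.0782 to 0.223 FPKM in AOM/DSS mice.

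Of 16 cytokine and receptor genes known to induce these ligands, 10 were tested between AOM/DSS and Control mice, 6 were called higher, beside 16.4% of all genes, and 1, Il17rc, lower, beside 7.23%. These counts were 6 and 1 without Control mice 17 and 50 too, and Osm passed the filter through AOM/DSS mice alone and so had to differ. Il1b, the gene of interleukin-1 beta, rose from 0.849 to 5.91 FPKM over Control mice to 32.5 to 73.4 FPKM over AOM/DSS mice, by 3.97 (SE 0.39, limma adjusted p = 6.64e-05). Il1a rose by 2.20, Il1f9 (interleukin-36 gamma) by 2.00 and Osm (oncostatin M) by 1.98. Tnf rose by 1.91 (SE 0.26, limma adjusted p = 5.88e-04), from 1.63 ± 1.07 to 8.55 ± 2.04 FPKM (SD, n = 5 each). Il17a had a value of 0 in 4 of 5 Control mice and of 0.151 to 1.18 FPKM with AOM/DSS. None of the 12 tested was called with limma between the AOM/DSS groups with and without PZH. There 5 were lower with an unadjusted P under 0.05, beside 8.21% of all genes. Of these, 4 (Il1a, Il1b, Osm and Il1f9) met the study's criteria, beside 2.01% of all genes. Il1b in PZH + AOM/DSS mice was 10.5, 8.89, 42.1, 53.7 and 21.8 FPKM in mice 2, 13, 15, 35 and 36, with mouse 35 highest. In both PZH groups, 2 of 7 tested were called higher with AOM/DSS, Il1b by 3.11 (SE 0.46, limma adjusted p = 0.0156) and Osmr, the oncostatin M receptor, by 0.93 (SE 0.18, limma adjusted p = 0.0349). Of all genes, 1.74% were called higher in that comparison. AOM/DSS mouse 23, highest in Cxcl1, also held the highest Csf3 (6.03 FPKM, against 0.0736 to 0.335 in the rest of its group), a gene named after its values were seen.

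Genes of the NF-kB pathway, the route from these cytokines to the ligands, numbered 16, all tested. In mice not given PZH, 9 were called higher with AOM/DSS than without, 6 when Control mice 17 and 50 were left out, beside 16.4 and 12% of all genes, and none lower, with a median log2 difference of 0.54 beside 0.09 over all genes. Zc3h12a, which encodes an RNase that cuts cytokine mRNAs, rose by 1.39 (SE 0.20), Rel, a subunit of NF-kB, by 1.12 (SE 0.14), and the inhibitors Tnfaip3 and Nfkbie by 1.03 (SE 0.33) and 0.89 (SE 0.17). Tnfaip3 was not called without mice 17 and 50. The AOM/DSS group held Zc3h12a at 33.2 ± 2.39 FPKM (SD, n = 5) and the PZH + AOM/DSS group at 31.1 ± 4.66 FPKM (SD, n = 5). None of the 16 was called between these groups, and 3 were lower with an unadjusted P under 0.05, beside 8.21% of all genes. In PZH + AOM/DSS against PZH mice 3 were called higher, beside 1.74% of all genes.

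Neutrophil genes were counted without Cxcr2, which leaves 19. Of 14 tested between AOM/DSS and Control mice, 12 were called higher and none lower, beside 16.4% of all genes called higher. Of the 14, Mmp8, Trem1 and Clec4e passed the filter through AOM/DSS mice alone and so had to differ. Without Control mice 17 and 50, 13 were called. S100a9 and S100a8, which encode the calprotectin subunits, rose by 5.29 (SE 0.97, limma adjusted p = 0.00328) and 5.21 (SE 0.87, limma adjusted p = 0.00191), Retnlg by 4.17 (SE 0.35) and Clec4d by 2.26 (SE 0.29). The summed level of the 19 was 125 to 454 FPKM in Control, 118 to 232 in PZH, 339 to 799 in AOM/DSS and 221 to 463 in PZH + AOM/DSS mice, the highest of the last group being mouse 35. In Control and PZH mice the sum rested mostly on Ly6g (means of 175 and 110 FPKM) and Cd177 (38.4 and 55.75 FPKM). It is therefore no even measure of the 19 genes in those groups. Ly6g, the gene of the usual neutrophil surface marker, did not follow: the Control group had 175 ± 113 FPKM (SD, n = 5) and the AOM/DSS group 104 ± 26.5 FPKM (SD, n = 5), and it made up 369 of the 454 FPKM of Control mouse 17. Mpo, which encodes myeloperoxidase and is transcribed in neutrophil precursors, did not exceed 0.172 FPKM in AOM/DSS mice and had a value of 0 in each Control mouse. Between the AOM/DSS groups with and without PZH, none of the 14 was called, 10 had an unadjusted P under 0.05, where 8.21% of all genes had one and were lower, and 6 met the study's criteria and were lower, beside 2.01% of all genes. Between the PZH groups 1 of 9 tested, Retnlg, was called higher (2.17, SE 0.43, limma adjusted p = 0.0355), beside 1.74% of all genes.

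**Figure D5:**
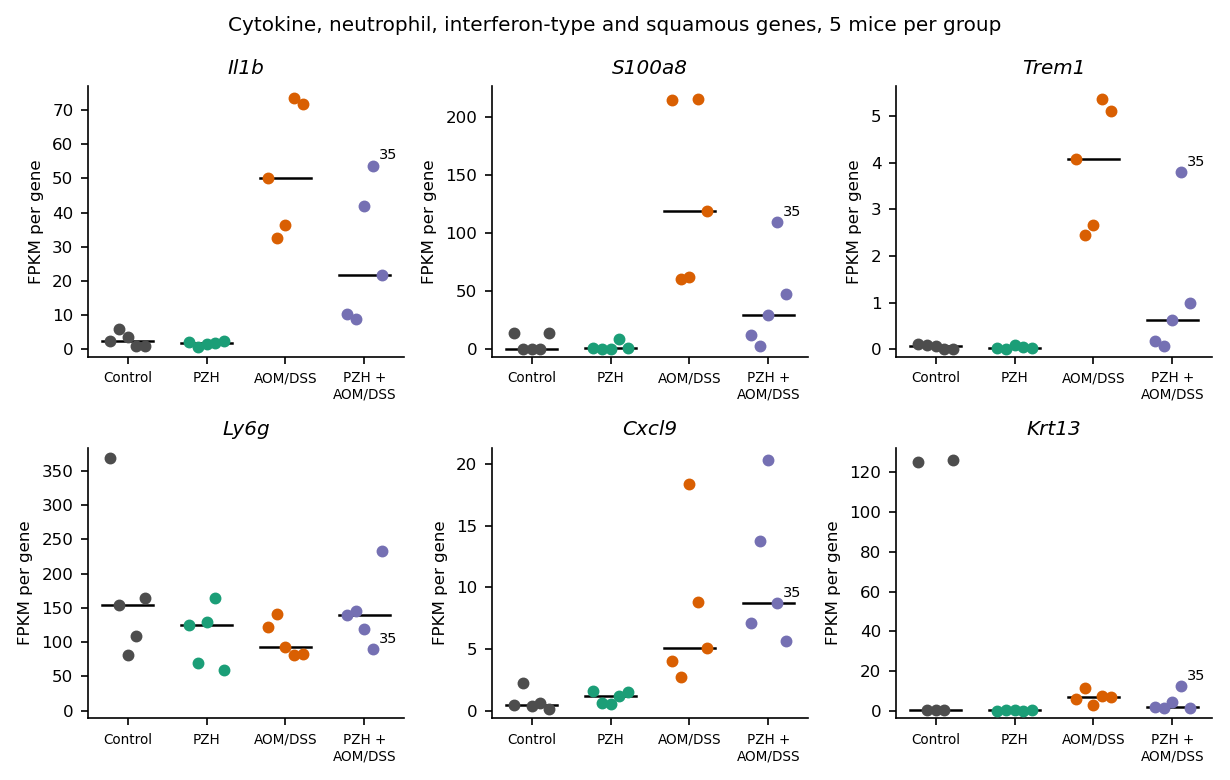
FPKM per gene (linear axes) of the cytokine gene Il1b, the neutrophil genes S100a8, Trem1 and Ly6g, the interferon-type chemokine gene Cxcl9 and the squamous keratin gene Krt13 in each of 5 mice per group, with lines at the medians and mouse 35 marked. Il1b, S100a8 and Trem1 are highest in mouse 35 within its group, Cxcl9 and Ly6g are not, and Krt13 is high in 2 Control mice.

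Genes of other cell types were also called with AOM/DSS, beside 16.4% of all genes called higher and 7.23% lower. All 6 smooth muscle genes were called lower than in Control mice, 4 of them without mice 17 and 50, with sums of 996 to 1734 FPKM against 2244 to 5172 FPKM. Macrophage and monocyte genes, 10 in all, summed to 535 to 702 FPKM in AOM/DSS against 308 to 595 FPKM in Control mice, and 4 of them were called higher, 3 without mice 17 and 50. Of 8 fibroblast genes 3 were called higher (Col1a1, Pdgfra and Pdpn) and Lum lower, and of 6 endothelium genes 2 higher (Cdh5 and Vwf). Without mice 17 and 50, Pdgfra was not called (limma adjusted p = 0.0727). Of 9 colon epithelium genes tested, Lgr5 was called higher by 2.46 (SE 0.22), and Car1 and Slc26a3 lower by 2.22 (SE 0.40) and 2.39 (SE 0.28). Without mice 17 and 50, Cdx2 was called lower too (limma adjusted p = 0.0453). Squamous markers, 7 tested, had 1 called higher (Ly6d), and 6 without the 2 Control mice in which they were high. In PZH + AOM/DSS mice the 10 macrophage and monocyte genes summed to 418 to 796 FPKM. Between the AOM/DSS groups 0 of 10 were called, and 1 was lower with an unadjusted P under 0.05, beside 8.21% of all genes. The part of these shifts in the chemokine values was not tested.

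The genes most like each member over the 20 mice were ranked by Pearson's r of log2(FPKM + 1) among 14882 genes. Since r over all mice takes in the differences between groups, it was also taken within groups, and no P is given. Cxcl1 was most like Inhbb, Lcn2 (lipocalin 2) and Mmp10, with r of 0.967, 0.967 and 0.964 over all mice and 0.830, 0.833 and 0.819 within groups. Cxcl2 was most like Sp5 (0.989, within groups 0.922), Tnfrsf11b (0.988, 0.950) and Wnt10a (0.988, 0.964). Trem1, a receptor of neutrophils and monocytes, came first for Cxcl3 (0.977, 0.895), before Tnfrsf11b (0.973, 0.890) and Erich3 (0.971, 0.868). For Cxcl5 the 3 were Mmp9 (0.974, 0.868), Steap4 (0.972, 0.892) and Mt4 (0.972, 0.836), and for Cxcl14 they were Adam8 (0.970, 0.846), Nkd1 (0.962, 0.810) and Arl4c (0.962, 0.843). Cxcr2 was most like Vash2 (0.992, 0.958), Padi4 (0.990, 0.960) and Sp5 (0.990, 0.932).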

How the data were processed

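Total RNA of colon tissue from 20 mice was depleted of rRNA and sequenced, 1 library per mouse. The deposited values are FPKM per transcript, for which the authors used FastQC v0.11.5, NGSQC v2.3.3, HISAT2 v2.1.0 (mm10) and StringTie v1.3.3b. The labels also name limma. Strand use in counting is not given in the sources used here. FPKM were summed per gene over the 96032 transcripts found in GENCODE M21. The 22252 assembled transcripts and 150 Ensembl transcripts were left out. Depth was taken from the spacing of low values after length was undone (49.0 to 54.7% of low values on whole steps, tolerance 0.02). Counts are not used here, and log2(FPKM + 1) was compared with limma 3.58.1 (R 4.3.3, intensity trend), in the 10 mice of both groups or all 20 for the interaction. Genes needed 0.5 FPKM in 5 of the mice, and P was adjusted (Benjamini-Hochberg) over all genes tested. The same fit was tested on made-up data with known changes. Group means are given ± SD. Each mouse is 1 animal. The 6 genes, the lists and the tests were chosen with earlier results of these data known. Named were the 6 genes, per list and comparison up to 4 called genes of largest change, Il1b, Il17a, Tnf, S100a8, S100a9, Ly6g and Mpo, and the 3 most alike genes. Alternatives were a pseudocount of 0.1, median-of-ratios scaling, no filter or 1 FPKM, all 20 mice in one model and leaving out each mouse, and, chosen after seeing the data, Control mice 17 and 50.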

Additional observations from a re-analysis of the deposited data

Results flagged for a closer look

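Of 24 sets of 5 values (6 genes in 4 groups), 4 held a mouse far from the rest of its group, where a nominal rate of 1 in 20 gives about 1.2. PZH + AOM/DSS mouse 35 lay apart in Cxcl2 (17.4 FPKM, next highest 3.94), Cxcl14 (52.5 FPKM, next 19.7) and Cxcr2 (3.27 FPKM, next 1.09). Control mouse 17 lay apart in Cxcr2 (0.381 FPKM, next 0.0578). The flags share mice and are not independent. The genes were chosen with these values known and some sets lay near 0, so no excess over chance is read from the count.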

How the results depend on the processing

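No paired analysis was possible because the mouse numbers differ between groups. Of 429 fitted differences under an alternative, 397 kept their direction and side of the threshold, 15 gained it, 16 lost it and 1 changed direction: Cxcl5 in PZH against Control, 0.044 without Control mice 17 and 50, left out after the data were seen. In AOM/DSS against Control mice, 6 genes were called under every alternative. For PZH + AOM/DSS against AOM/DSS the count was 0, 2 with all 20 mice in one model, and 0 to 5 when a mouse was left out, 5 without mouse 35. In PZH + AOM/DSS against PZH mice it was 2, 0 without a filter, 4 with all 20 mice, and 0 to 3 when a mouse was left out. For the interaction it was 0, and 0 to 4 when a mouse was left out, 4 without mouse 35. For PZH against Control it was 0 throughout. Beyond the left-out mouse and the larger residual sample, the cause was not tested. Counts by the study's criteria stayed within 1.5 times. Levels under 0.5 FPKM rest on few fragments.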
